A study of Saccharomyces cerevisiae with 4 samples.

Results

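The genes described here are 10 yeast genes of purine nucleotide synthesis and salvage: ADE1, ADE2, ADE4, ADE6, ADE8, ADE12, ADE13, ADE16, ADE17 and AAH1. They are 10 of the 5656 genes that the arrays name, and each is read by 1 probe set that names it alone. The set was chosen by the changes that ADE13 and AAH1 showed with treatment on these same arrays, so the values of both genes are a description, and nothing is supported with them.

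The yeast was Saccharomyces cerevisiae BY4741, of mating type MATa, with the labelled alleles his3Δ1, leu2Δ0, met5Δ0 and ura3Δ0, which the controls carry too; the labels list no change in an ADE gene. Cells grew in YEPD of pH 5.4 at 30 °C, and 2 mM dithiothreitol (DTT), a reductant that disturbs protein folding in the endoplasmic reticulum, or water was present for 1 h from an OD600 of 0.5. Ribosomes were then held on their transcripts with 0.1 mg/mL cycloheximide, and sucrose gradients of 15 to 60% parted sub-polysomal RNA, with few or no ribosomes, from polysomal RNA, with many; lysis and gradient buffers held 0.5 mM DTT for both treatments. Each treatment gave a sub-polysomal and a polysomal group, in all 4 groups of 1 array, hybridised with RNA pooled from 3 gradients. Array run and group therefore cannot be told apart.

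Yeast builds purines step by step on a ribose phosphate. The ADE enzymes lead to IMP, from which an AMP branch and a GMP branch part, and salvage enzymes such as Aah1 recycle free bases. The transcription factors Bas1 and Pho2 switch on most ADE genes when adenine is scarce, and the same intermediate that feeds the last ADE steps is released by histidine synthesis. Rich medium such as YEPD supplies purine bases, and blocks in ADE1 or ADE2 are known for the red pigment that yeast colonies then form.

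Of the 10 genes, 9 read above the floor on all 4 arrays. The floor is the intensity below which 40% of an array's probe sets lie, at 28.2 and 17.6 on the control arrays and 22.6 and 15.9 on the DTT arrays (here and in all such lists, sub-polysomal first, then polysomal), and 3923 genes passed it everywhere. ADE4, the gene of the amidotransferase that opens the pathway, did not pass: it read 11.8, 13.8, 7.9 and 8.7, below the floor on every array. Its change with DTT is therefore not given. The other 9 lay between 1.70 and 27.9 times the floor, the lowest being AAH1 on the DTT polysomal array.

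Groups of 1 array allow no test against replicates, and no p-value is given. Differences are log2 ratios between arrays that were each centred on their median. As a yardstick serves how far probe sets of the same gene lie apart, over 161 genes with several. Its pooled SD on the log2 scale was 0.45 for the change with DTT in the sub-polysomal fraction and 0.41 in the polysomal one. For the ratio of polysomal to sub-polysomal signal it was 0.41 without and 0.32 with DTT, and for the shift of that ratio 0.43. It covers neither cultures nor hybridisations, and none of the 10 genes has a second probe set.

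The control sub-polysomal array stood apart, with rank correlations of 0.885 to 0.920 to the others against 0.922 to 0.959 among the rest. Its ACT1 3′ to 5′ signal ratio was 2.49, against 1.48 to 1.91 elsewhere. The part of this array in the sub-polysomal changes, the control ratios and the changes in polysome association was not tested. The polysomal change and the ratio under DTT use none of its readings. It still helped to set which probe sets passed the floor, and so the median on which the other arrays were centred. As a check of the strain, URA3 (0.3 to 1.2) and LEU2 (0.2 to 17.6) lay below the floor throughout. HIS3 (up to 207.8) lay above it throughout. MET5, labelled as deleted, read 96.7 to 184.5, above the floor on all 4 arrays. MET17, which is not among the labelled alleles, read 0.4 to 7.1, below the floor on all 4. These readings do not bear out the labelled MET5 deletion, and the label may name the wrong gene.

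**Figure D1:**
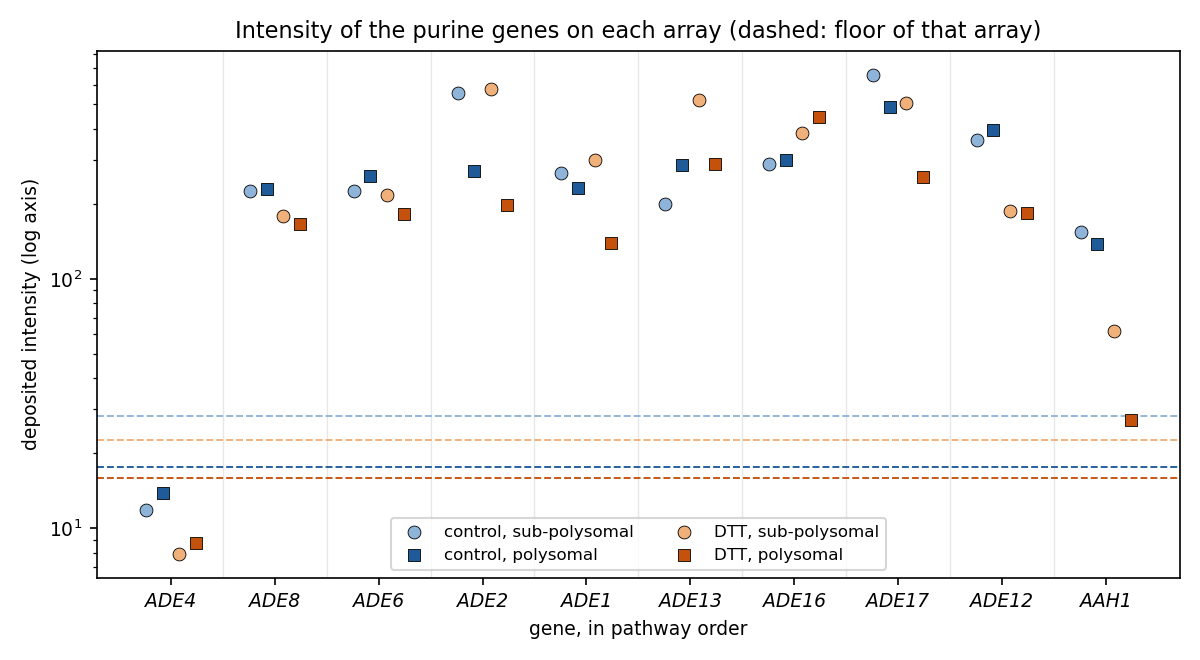
Deposited intensity (log axis) of the 10 genes on the 4 arrays, 1 point an array, in pathway order. Dashed lines are the floors of the arrays in matching colours (15.9 to 28.2). ADE4 lies under all of them, AAH1 is low on both DTT arrays, and ADE13 is high on the DTT sub-polysomal array; points of different genes come from different probe sets and cannot be ranked against each other.

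The first question is whether DTT changed how much of these transcripts there was. Total RNA was not analysed here, so the 2 fractions are given side by side; in such bulk RNA, fewer cells with a transcript and fewer copies per cell cannot be told apart. In polysomal RNA 8 of 9 genes were below 0 with DTT, as were 57.8% of all measured genes, and the median of the 9 was -0.54 against -0.10 for all genes. The eighth of them is ADE13 at -0.014: without centring, under loess scaling, with hybridisation control centring and with plain probe sets 7 of 9 were below 0, and with no floor or the 20th percentile floor 8 of 10. In sub-polysomal RNA 6 of 9 were lower, as were 62.3% of all genes, and the median was -0.16 against -0.20. At least 2-fold lower were ADE12 and AAH1 in each fraction (2 of 9 genes), where 11.1% of all genes were that low in sub-polysomal RNA, 7.04% in polysomal RNA and 4.61% in both. At least 2-fold higher was ADE13 in sub-polysomal RNA (1 of 9 genes, against 5.68% of all), and 0 of 9 were that high in polysomal RNA (4.33% of all) or in both fractions (2.83%). Since ADE13 and AAH1 led to the choice of the set, nothing is read from these counts; without both, the medians over 7 genes stayed at -0.54 and -0.16.

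AAH1 encodes adenine deaminase, which turns adenine into hypoxanthine and so lets cells make guanine nucleotides from adenine; in yeast it is known as a gene of growing cells that is shut off on entry into quiescence. Its probe set read 153.8 and 138.3 in control RNA and 61.7 and 27.1 in DTT RNA. Both DTT readings lay below both control readings, the polysomal one lowest. After centring it was 2.67-fold lower in sub-polysomal RNA (log2 -1.42) and 5.21-fold lower in polysomal RNA (-2.38), where it ranked 9th from the lowest of 3923 genes. The 2 changes were 3.15 and 5.85 times the SD between probe sets. The DTT polysomal reading was 1.70 times its floor, so this fold rests on a dim value; both changes were also past 2-fold in the 7 other settings in which AAH1 was measured.

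ADE12 encodes adenylosuccinate synthase, the entry to the AMP branch. It read 361.9 and 396.2 on the control sub-polysomal and polysomal arrays and 187.5 and 183.0 on the DTT arrays. The values of the 2 fractions were close within each treatment, and both DTT values were below both control values. It was 2.07-fold lower in sub-polysomal RNA (log2 -1.05) and 2.21-fold lower in polysomal RNA (-1.14), 2.33 and 2.81 times the SD. The sub-polysomal value is near the limit: it ranged from -1.18 to -0.81 over the other settings, and 5 of 8 put it short of 2-fold, as 1 of 8 did the polysomal value (-0.90).

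ADE13 encodes adenylosuccinate lyase, which acts both on the way to IMP and again, after Ade12, in the AMP branch. It read 199.5 and 286.3 in control RNA and 520.5 and 289.6 in DTT RNA. The DTT sub-polysomal value stood above the others, and the polysomal values of the treatments were nearly equal. It was 2.43-fold higher with DTT in sub-polysomal RNA (log2 1.28, 2.84 times the SD; 142nd from the highest of 3923 genes) and at -0.014 in polysomal RNA. The sign of the polysomal value changed under 6 of 8 other settings, with a range from -0.13 to 0.23. The sub-polysomal change uses the array that stood apart. For the genes of the 2 enzymes that share the AMP branch, ADE13 minus ADE12 came to 2.33 (sub-polysomal) and 1.13 (polysomal) on the log2 scale. Both gaps hold values of ADE13, which led to the choice of the set, so they are a description only.

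**Figure D2:**
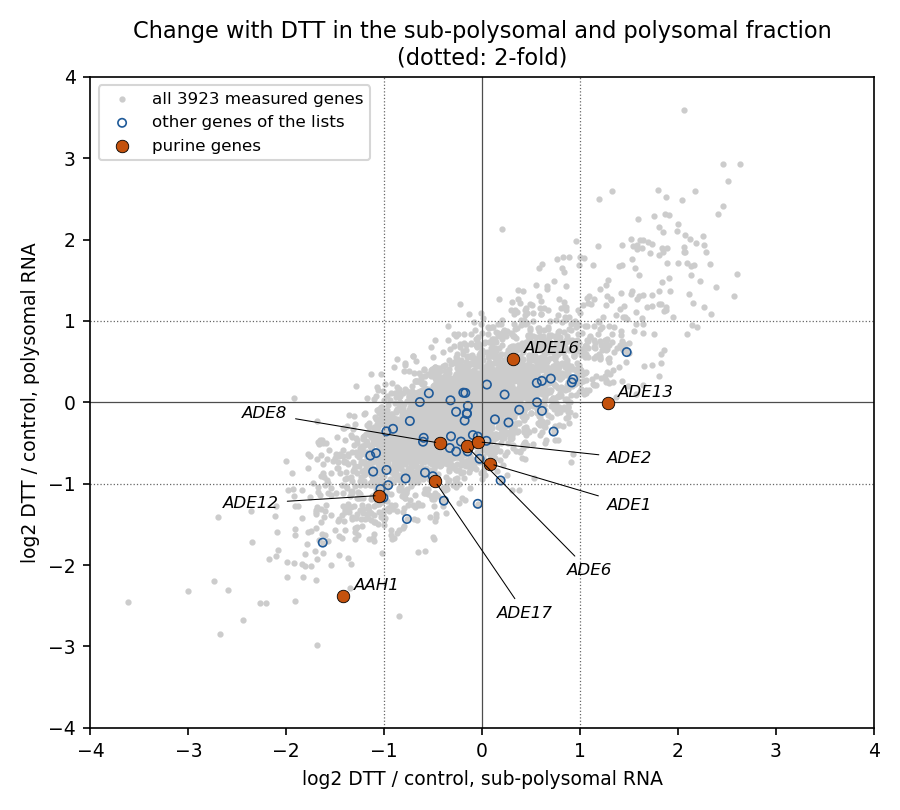
Log2 change with DTT in sub-polysomal RNA (x axis) and polysomal RNA (y axis), 1 point a gene: all 3923 measured genes in grey, the 9 measured purine genes filled, and 53 other genes of related lists as open circles; dotted lines mark 2-fold. AAH1 (-1.42 and -2.38) and ADE12 (-1.05 and -1.14) lie past 2-fold on both axes, ADE13 (1.28 and -0.014) on the x axis alone. On the y axis 8 of 9 purine genes lie below 0, ADE13 so near to it that its sign changed under 6 of 8 other settings.

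The other measured genes of the steps to IMP had smaller changes with DTT than ADE13 in sub-polysomal RNA. In polysomal RNA, where ADE13 was at -0.014, their changes were larger in size. ADE8, for the glycinamide ribotide transformylase, read 225.1 and 228.8 in control and 179.1 and 165.2 in DTT RNA (sub-polysomal, then polysomal), with log2 changes of -0.43 and -0.50. ADE6, for the amidine synthetase that follows, read 225.7 and 257.5 in control and 217.0 and 181.2 in DTT RNA (-0.16 and -0.54). In either gene only the polysomal change exceeded the SD between probe sets.

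ADE2 and ADE1 encode the carboxylase and the synthetase of the red-pigment steps. ADE2 read 555.0 and 270.4 in control and 578.6 and 197.4 in DTT RNA, with log2 changes of -0.042 and -0.48. ADE1 read 265.2 and 230.3 in control and 300.7 and 139.5 in DTT RNA, with changes of 0.079 and -0.75. For both genes the sub-polysomal readings of the treatments were close and the DTT polysomal reading was the lowest of the 4. The sub-polysomal sign of ADE2 changed under 6 of 8 other settings, while that of ADE1 was the same in all 8, from 0.0065 to 0.32.

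ADE16 and ADE17 encode the isozymes of the last steps to IMP, transformylase and cyclohydrolase in 1 protein each, and their readings moved apart. ADE16 read 287.4 and 300.4 in control and 384.8 and 444.0 in DTT RNA. ADE17 read 658.2 and 489.7 in control and 504.9 and 256.4 in DTT RNA. For ADE16 both DTT readings were above both control readings; for ADE17 the DTT polysomal reading was below the rest, and the DTT sub-polysomal reading lay between the control ones. ADE16 was 1.25-fold and 1.45-fold higher with DTT in sub-polysomal and polysomal RNA (log2 0.32 and 0.53), and ADE17 was 1.40-fold and 1.95-fold lower (-0.48 and -0.96). The gap between the isozymes, ADE16 minus ADE17, amounted to 0.80 (sub-polysomal) and 1.50 (polysomal) on the log2 scale. Neither gene was past 2-fold in a fraction, but both polysomal changes exceeded the SD (1.31 and 2.37 times it). As reported, ADE16 alone of the 9 genes was above 0 with DTT in polysomal RNA; in 6 of 8 other settings ADE13 was too. The signs of ADE16 and ADE17 held in all 8.

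The second question is how much of each transcript sat on polysomes, and whether DTT changed that. In control cells the polysomal to sub-polysomal ratio of the 9 genes had a median of 0.19 (all genes -0.030), and 3 of 9 were below 0, against 51.5% of all genes. None of the 9 was at least 2-fold higher (7.11% of all genes) or lower (6.50%). In DTT-treated cells the median was -0.60 (all genes 0.080) and 6 of 9 were below 0, against 45.5% of all genes; without ADE13 and AAH1, which led to the choice of the set, the median of the other 7 was -0.019 and 4 of 7 were below 0. At least 2-fold lower was ADE2 (1 of 9, against 3.80% of all genes), and 0 of 9 were 2-fold higher (4.79%). These ratios compare separately labelled RNA and show no absolute share of a transcript on ribosomes. Their level moves with the scaling: the median in DTT-treated cells ran from -0.95 under loess scaling to -0.099 with no floor, and that in control cells from -0.11 to 0.55. The counts below 0 moved as well. In control cells they ran from 1 of 10 with no floor to 7 of 9 under quantile scaling. With DTT they ran from 5 of 10 with no floor to 8 of 9 under loess scaling. Under quantile scaling 7 of 9 were below 0 in both treatments, and in every other setting more were below 0 with DTT than without.

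ADE2 had the lowest ratio of the 9 under both treatments, at -0.87 in control and -1.31 in DTT-treated cells (1.82-fold and 2.48-fold less in polysomal RNA). In DTT-treated cells it ranked 51st from the lowest of 3923 genes. ADE13 had the highest ratio in control cells (0.69) and -0.60 with DTT, a move from 1.61-fold more in polysomal RNA to 1.52-fold less. ADE1 went from -0.034 to -0.87 and AAH1 from 0.017 to -0.95. ADE17 stood at -0.26 and -0.74 and ADE6 at 0.36 and -0.019. ADE8 had ratios of 0.19 and 0.12, ADE12 of 0.30 and 0.21 and ADE16 of 0.23 and 0.45. In these 3 genes and in ADE6 the ratios of the treatments differed by less than the SD of 0.43. The sign of the control ratio changed in at least 1 other setting for 6 of 9 genes and held for ADE2, ADE6 and ADE13. The sign of the DTT ratio changed under 4 of 8 other settings for ADE8, 3 for ADE6 and 2 for ADE12, and held for the rest.

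The change in polysome association, the DTT ratio minus the control ratio, was below 0 for 8 of 9 genes, against 43.2% of all genes. Its median was -0.44 (all genes 0.081). It was lowest for ADE13 (-1.30, 12th from the lowest of 3923 genes), then AAH1 (-0.96, 73rd) and ADE1 (-0.83, 139th). ADE17 (-0.48), ADE2 (-0.44), ADE6 (-0.38), ADE12 (-0.094) and ADE8 (-0.069) followed, and ADE16 was above 0 (0.21). ADE12 and ADE8 changed sign under quantile scaling and when centred on the hybridisation controls, which left 6 of 9 genes below 0. At least 2-fold lower was ADE13 (1 of 9, against 1.45% of all genes), and 0 of 9 were 2-fold higher (1.99%). ADE13 and AAH1 led to the choice of the set, so nothing is read from counts that hold them. Without both, the median of the other 7 was -0.38. Of these 7, 6 were below 0, 0 were at least 2-fold lower and 0 were 2-fold higher. This quantity is the polysomal change minus the sub-polysomal change, so it uses all 4 arrays and adds no new readings.

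The route to that change differed between the genes. For ADE13 the polysomal readings were level and the sub-polysomal one was 520.5 with DTT against 199.5 without. For ADE1, ADE2 and ADE6 the sub-polysomal changes were within 0.16 of 0 and the polysomal readings were lower. For AAH1 and ADE17 both fractions were lower, the polysomal one more so, and for ADE12 and ADE8 both were lower by like amounts. These routes describe single readings, and no general statement is drawn from them. ADE13 and AAH1 led to the choice of the set, and the shifts of ADE6, ADE12 and ADE8 were inside the SD of 0.43.

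**Figure D3:**
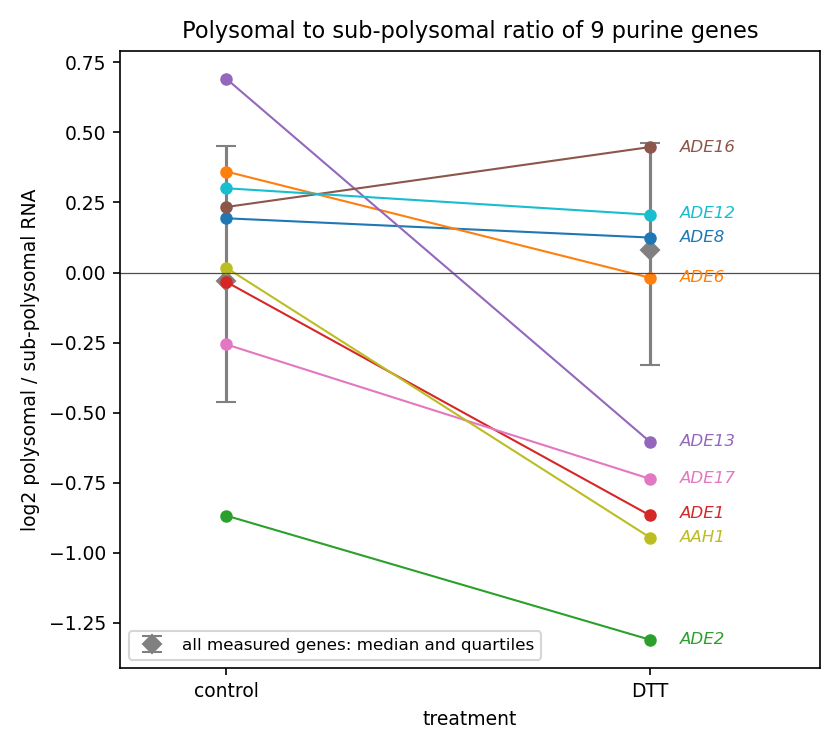
Log2 polysome ratio (polysomal over sub-polysomal) without and with DTT, 1 line a gene for the 9 measured purine genes; grey diamonds and bars give the median and quartiles of all 3923 measured genes. ADE13 has the highest value in control cells (0.69) and -0.60 with DTT, ADE2 is lowest in both treatments (-0.87 and -1.31), and ADE16 alone has a line that goes up.

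**Figure D4:**
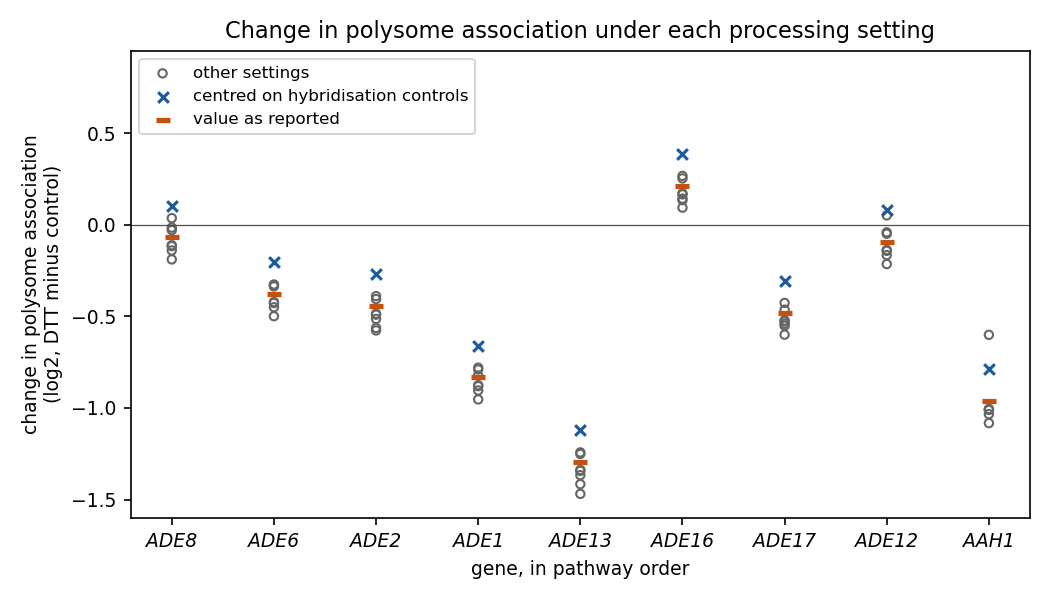
Change in polysome association (log2, DTT minus control) of the 9 genes as reported and under the other processing settings, 8 a gene and 7 for AAH1, which does not pass the highest floor. ADE13 stays between -1.47 and -1.12, ADE1 between -0.95 and -0.66 and ADE16 above 0, while ADE8 and ADE12 have values on both sides of 0.

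Other genes around the pathway were read from 9 lists, which hold 64 further genes: 53 were measured, 10 were too dim and 1 was not analysed here. Of the 53, 1 was at least 2-fold higher (5.68% of all genes) and 6 were lower (11.1%) with DTT in sub-polysomal RNA. In polysomal RNA 0 were higher (4.33% of all genes) and 7 lower (7.04%). The medians of the 53 were -0.19 and -0.36, against -0.20 and -0.10 for all genes. Counts in each list below read against these same shares.

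The 5 genes of PRPP synthetase, which makes the activated ribose that the pathway starts from, were all below 0 in polysomal RNA. So were 57.8% of all genes, and the 5 ran from -1.21 for PRS4 to -0.42 for PRS2. PRS4 was the 1 of 5 past 2-fold (7.04% of all genes were that low), with readings of 236.7 in control and 104.6 in DTT polysomal RNA. In sub-polysomal RNA 0 of 5 were past 2-fold (11.1% of all genes were that low and 5.68% that high), and their median was -0.22.

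In the GMP branch GUA1, for GMP synthase, read 988.7 and 925.6 in control and 343.4 and 286.2 in DTT RNA. It was 3.09-fold and 3.30-fold lower in sub-polysomal and polysomal RNA (log2 -1.63 and -1.72), past 2-fold in all 8 other settings. It was the 1 of 5 genes of this list past 2-fold, where 11.1% and 7.04% of all genes were that low. IMD2 for IMP dehydrogenase lay highest in polysomal RNA (-0.043), read by 3 probe sets that may also take up related IMD transcripts. With DTT these went from 74.2 to 61.2, 250.5 to 218.3 and 119.3 to 161.7 in polysomal RNA, so their directions differed. The IMD2 value changed sign there under 3 of 8 other settings. In the AMP branch list, with 4 of 5 genes measured, none other than ADE12 and ADE13 was past 2-fold with DTT, and the adenylate kinase gene ADK1 stood at 0.38 and -0.091.

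Purine salvage and uptake had the lowest polysomal median of the 9 lists (-0.76). Of 10 measured genes, 3 were at least 2-fold lower in each fraction, against 11.1% (sub-polysomal) and 7.04% (polysomal) of all genes. AAH1, which with ADE13 led to the choice of the set, is counted in the medians and counts of this list, so nothing is read from these counts. Without AAH1 the middle gene of the list is ISN1 in sub-polysomal RNA (-0.54) and FCY2 in polysomal RNA (-0.69). In sub-polysomal RNA the median was -0.57, and all 10 were below 0, as were 62.3% of all genes. Of the 10, FCY2 (-0.026), HPT1 (-0.044) and ADO1 (-0.19) changed sign under 5, 6 and 2 of 8 other settings. Beside AAH1 the genes past 2-fold were APT1 (adenine phosphoribosyltransferase, -1.11) and XPT1 (xanthine phosphoribosyltransferase, -1.01) in sub-polysomal RNA, and HPT1 (-1.25) and XPT1 (-1.17) in polysomal RNA. XPT1 read 349.6 and 396.9 in control and 186.6 and 180.0 in DTT RNA, and its sub-polysomal value was short of 2-fold in 5 of 8 other settings. HPT1, whose enzyme turns the hypoxanthine that Aah1 makes into IMP, read 115.0 and 102.7 in control and 119.7 and 44.2 in DTT RNA. Its sub-polysomal readings were level and its DTT polysomal reading was low, as for ADE1 and ADE2, and its change in polysome association was -1.20, 26th from the lowest of 3923 genes. ADO1, for adenosine kinase, was the highest of the list in polysomal RNA (0.12).

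**Figure D5:**
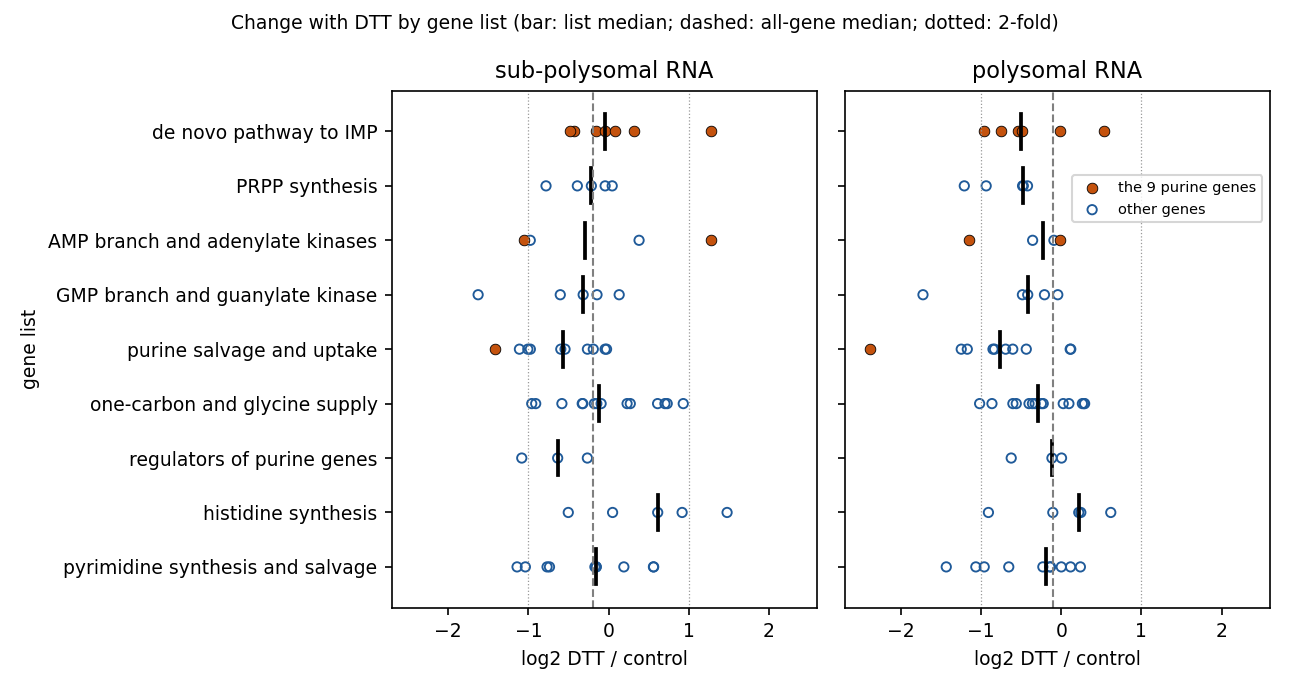
Log2 change with DTT of each measured gene of the 9 lists in sub-polysomal (left) and polysomal RNA (right), with the 9 purine genes filled, other genes open and a bar at each list's median; dashed lines give the all-gene medians (-0.20 and -0.10) and dotted lines 2-fold. Purine salvage has the lowest polysomal median (-0.76 with AAH1 counted, -0.69 without). Histidine synthesis, listed without HIS3, has the highest (0.22). ADE13 is shown in both lists that hold it.

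One-carbon and glycine genes, which supply formyl groups and glycine to the ADE enzymes, had medians of -0.12 and -0.29 in sub-polysomal and polysomal RNA. Of 14, 0 and 1 were at least 2-fold lower (11.1% and 7.04% of all genes) and 0 higher (5.68% and 4.33%). The lowest in polysomal RNA was GCV2 of the glycine cleavage system (-1.02, short of 2-fold in 5 of 8 other settings), and the highest was ADE3 (0.29), for the trifunctional folate enzyme, which read 446.5 and 638.6 in control and 779.4 and 798.5 in DTT RNA.

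The activator gene BAS1 was lower with DTT in both fractions, with readings of 100.3 and 35.3 in control and 50.8 and 23.4 in DTT RNA. Its log2 changes were -1.08 and -0.62, the first short of 2-fold in 4 of 8 other settings. The second rests on a dim DTT polysomal reading (23.4, with a floor of 15.9). PHO2, the partner of BAS1, read 25.7, 1.8, 15.1 and 10.6, below the floor on every array. Of the 3 measured regulator genes the highest in polysomal RNA was SSN3, a Mediator kinase gene (0.0037); GCN4, the activator of amino acid synthesis, which also acts on ADE genes, stood at -0.12 there.

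Histidine synthesis had medians above 0, at 0.61 in sub-polysomal and 0.22 in polysomal RNA over 5 of the 6 genes listed. The list leaves out HIS3, a gene with a labelled allele in this strain. HIS3 was below 0 in both fractions (-0.14 and -0.42), so counting it would lower both medians. HIS7, whose enzyme releases the intermediate shared with the ADE pathway, read 46.8 and 115.1 in control and 139.8 and 180.4 in DTT RNA, with log2 changes of 1.48 and 0.62. It was 2-fold higher in sub-polysomal RNA in all 8 other settings as well. That change rests on a dim control reading (46.8, with a floor of 28.2) on the array that stood apart. HIS1, which opens that pathway, was lowest in polysomal RNA (-0.91). Pyrimidine genes had medians of -0.16 and -0.19. Of 10 measured, 0 were 2-fold higher (5.68% and 4.33% of all genes), and 2 were 2-fold lower in each fraction (11.1% and 7.04%). They were FCY1 (cytosine deaminase, -1.14) and URA5 (orotate phosphoribosyltransferase, -1.04) in sub-polysomal RNA, and URA7 (CTP synthase, -1.43) and URA5 (-1.07) in polysomal RNA, where URA1 was the highest (0.24). URA5 was short of 2-fold in 7 of 8 other settings in sub-polysomal and in 3 of 8 in polysomal RNA.

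Genes with profiles most like the 2 leading genes were sought among 3132 genes above every array's median, by Euclidean distance over the 4 centred log2 values with each gene's own mean removed. Nearest to ADE13 were COX11, which helps to put copper into cytochrome oxidase (distance 0.20), the transcriptional repressor gene RIM101 of the response to alkaline pH (0.20) and MAM33 for a protein of the mitochondrial matrix (0.24), where the median distance of all genes was 1.23. COX11 had DTT changes of 1.06 in sub-polysomal and 0.12 in polysomal RNA, RIM101 1.14 and 0.22, and MAM33 1.13 and 0.23. Nearest to AAH1 were NOP13 for a nucleolar RNA-binding protein (0.30), FAR1, for an inhibitor of the cell-cycle kinase in the pheromone response (0.34), and SUN4 of cell separation (0.38), against a median distance of 2.00. Their changes were -1.54 and -2.00 for NOP13, -1.70 and -2.18 for FAR1, and -1.81 and -2.01 for SUN4. Likeness over 4 arrays describes these readings only.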

How the data were processed

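The authors deposited an intensity on a linear scale for every probe set of each array, from biotin-labelled RNA (5 µg an array) on Affymetrix YG_S98 yeast arrays, per the labels and the run sheets. From the values, each array was scaled to a trimmed mean of about 100 (100.1 on each after 2% is trimmed at either end); the probe summarisation method was not given in the sources used here. Of 9335 probe sets, 6504 name 1 gene, 328 several and 2503 none (60 controls among them); only the first kind was used. A column of no sample was not found (0 columns).

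Computed here (Python 3.11.15, pandas 2.3.3, statsmodels 0.14.6) were log2 intensities of the 4720 probe sets above each array's 40th percentile on all 4 arrays, centred on each array's median, averaged per gene (3923 genes). The code was tested on simulated data. Groups follow the sample titles, with 1 array each, so the number of arrays limits precision and genes were counted past 2-fold without a test. Alternatives were 3 other floors, 4 other scalings, plain probe sets only, and limits of 1.5-fold and 3-fold.

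The members and gene lists were chosen with earlier results of these data known. Named were all 10 genes, list genes past 2-fold with DTT or highest or lowest of their list in polysomal RNA, and the 3 genes nearest to ADE13 and to AAH1. No sequence table was given, so a planned promoter motif search was not run.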

Additional observations from a re-analysis of the deposited data

Results flagged for a closer look

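For 2 genes the change with DTT had opposite signs in the fractions, and by more than the spread between probe sets (SD 0.43). ADE13 was higher in sub-polysomal RNA (1.28) and at -0.014 in polysomal RNA, a difference of -1.30; its polysomal value was above 0 in 6 of 8 other settings, where the signs were not opposite. ADE1 was at 0.079 in sub-polysomal and -0.75 in polysomal RNA, a difference of -0.83. With 1 array a group neither difference was tested, and the value nearer to 0 in each gene is well inside the spread between probe sets. Both differences kept their sign in all 8 other settings, with ranges of -1.47 to -1.12 for ADE13 and -0.95 to -0.66 for ADE1. Both use the control sub-polysomal array, whose part in them was not tested.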

How the results depend on the processing

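No paired analysis was possible because each group has 1 array, and for the same reason no array could be left out. The medians of the 9 genes kept their sign in every alternative for both DTT changes (-0.25 to -0.057 in sub-polysomal and -0.60 to -0.29 in polysomal RNA) and for the change in polysome association (-0.54 to -0.27). That of the control ratio ranged from -0.11 to 0.55. That of the DTT ratio was -0.099 with no floor and -0.22 with the floor lowered to the 20th percentile, where ADE4 enters as a 10th gene, -0.95 under loess scaling and -0.25 when centred on the hybridisation controls; leaving out ADE13 and AAH1 moved it further than any of these, to -0.019. Only the hybridisation control centring moved the all-gene median in polysomal RNA by over 0.1, to 0.14; in sub-polysomal RNA that median was -0.019 with no floor, -0.095 without centring and -0.043 under loess scaling.

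Counts past 2-fold were small and moved with the setting. In sub-polysomal RNA 1 gene in place of 2 was lower with no floor, with floors at the 20th and 60th percentile, without centring, with hybridisation control centring and with plain probe sets; at a 3-fold limit 0 were lower and 0 higher. In polysomal RNA 1 was lower with the 60th percentile floor (AAH1 is not measured there), with hybridisation control centring and at 3-fold, and 4 at 1.5-fold. For the control ratio 1 was lower with the 60th percentile floor, without centring, under quantile and loess scaling and at 1.5-fold, and 1 higher with no floor and at 1.5-fold. For the DTT ratio 2 were lower with the 60th percentile floor, 3 without centring, 4 under quantile and 3 under loess scaling, 0 with hybridisation control centring, 5 at 1.5-fold and 0 at 3-fold. For the change in polysome association 2 were lower with no floor, with the 20th percentile floor, with plain probe sets, without centring and under loess scaling, 3 at 1.5-fold and 0 at 3-fold. Of other list genes, FOL2 and HIS2, below 2-fold as reported (0.93 and 0.92), were at least 2-fold higher in sub-polysomal RNA in 5 of 8 alternatives each. APT1 and FCY1 in sub-polysomal RNA were short of 2-fold with no floor, and PRS4 and XPT1 in polysomal RNA with hybridisation control centring. A limit changes a count by its construction; the cause of the other moves was not tested. Dim readings, such as AAH1 on the DTT polysomal array and all of ADE4, are the least certain.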

Other observations

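Of the 64 further genes, 10 were not above the floor on every array and were not compared. Among them FCY21, a gene of the purine and cytosine permease family, read 22.9 and 26.8 in control and 74.2 and 62.1 in DTT RNA (sub-polysomal, then polysomal), and the uridine kinase gene URK1 read 56.6 and 35.4 in control and 16.6 and 15.6 in DTT RNA. Both were picked after their values were seen. SAF1, whose protein is known to mark Aah1 for breakdown in quiescent cells, read 25.3, 65.9, 54.5 and 65.5 on the control sub-polysomal, control polysomal and both DTT arrays, below the floor on the control sub-polysomal array alone.

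Of the 53 measured further genes, 3 had a change in polysome association at least 2-fold below 0, where 1.45% of all genes were, and 0 were that far above it, where 1.99% were. They were HPT1 (-1.20), FUR1 for uracil phosphoribosyltransferase (-1.15) and GCV1 of the glycine cleavage system (-1.09). FUR1 read 194.7 and 572.4 in control and 238.3 and 300.5 in DTT RNA. GCV1 read 120.7 and 145.8 in control and 214.9 and 116.1 in DTT RNA.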
